A study of Mus musculus with 6 samples.

Results

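The cortical projection neuron transcription factors described here are 9 genes chosen by name for their known role in excitatory neurons of the cortex, among the 31053 genes listed in each library. They are *Tbr1*, *Fezf2* and *Bcl11b*, which mark deep-layer neurons, *Cux1* and *Cux2*, which mark upper-layer neurons, *Neurod2* and *Neurod6*, which are shared by excitatory neurons of all layers, and *Bcl11a* and *Mef2c*, which act broadly in projection neurons. The measure was EPR, the number of C-to-U edits divided by the number of reads of a gene. Genes whose EPR exceeded 0 are termed edited, and 8 of the 9 factors were edited in all 6 libraries, as were 8046 of all listed genes.

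Primary cortical neurons came from wild-type C57BL/6J embryos at embryonic day 18 and were treated with floxuridine, which limits dividing cells, from DIV 3. At DIV 6 they received an AAV with a Ribo-STAMP construct in which rAPOBEC1, a cytidine deaminase, is fused either to RPL10A or to RPL22, both proteins of the large ribosomal subunit. The neurons were collected at DIV 14 after 48 h of Dox at 1 μg per ml, which switches the construct on. Expression also needed a transactivator driven by the synapsin promoter, a design meant for expression in neurons. There were 3 RPL10A-STAMP and 3 RPL22-STAMP libraries of polyA RNA, and every library had the same Dox treatment. All sample titles carry NT, which the paper uses for no treatment in its experiments with the growth factor BDNF. Uninfected neurons were not analysed here, so C-to-T differences that do not come from the constructs were not subtracted.

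Projection neurons are the glutamatergic, long-range neurons of the cortex. Their layer and target identity is set by transcription factors that oppose each other's programmes, with FEZF2 and BCL11B for subcerebral and TBR1 for corticothalamic neurons. Several of these factors stay on after birth, when NEUROD and MEF2 proteins take part in dendrite and synapse formation. Ribo-STAMP marks the mRNAs that ribosomes with the fusion protein meet, so EPR is read as a measure of ribosome contact per mRNA read, and it is not a measure of how much mRNA is present.

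The coding starts of the 3 MEF2 mRNAs and of the 2 NEUROD mRNAs are shown so that the related genes compared below can be set side by side at the bases that the enzyme can edit. Each is the first 120 coding bases of the transcript with the longest coding sequence (GENCODE mouse release 21, GRCm38), written 5′ to 3′, with C, the base that rAPOBEC1 edits, in capitals.
Mef2c: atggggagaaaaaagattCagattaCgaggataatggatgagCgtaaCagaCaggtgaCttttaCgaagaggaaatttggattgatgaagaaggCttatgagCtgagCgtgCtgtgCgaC
Mef2a: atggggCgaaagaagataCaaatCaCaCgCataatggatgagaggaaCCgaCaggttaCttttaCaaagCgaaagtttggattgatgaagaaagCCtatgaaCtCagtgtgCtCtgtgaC
Mef2d: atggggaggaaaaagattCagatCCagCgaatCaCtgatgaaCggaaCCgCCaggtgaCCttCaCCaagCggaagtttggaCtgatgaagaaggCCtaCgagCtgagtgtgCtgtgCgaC
Neurod2: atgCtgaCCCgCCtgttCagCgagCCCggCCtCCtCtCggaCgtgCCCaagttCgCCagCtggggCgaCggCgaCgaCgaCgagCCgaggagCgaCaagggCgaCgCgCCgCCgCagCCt
Neurod6: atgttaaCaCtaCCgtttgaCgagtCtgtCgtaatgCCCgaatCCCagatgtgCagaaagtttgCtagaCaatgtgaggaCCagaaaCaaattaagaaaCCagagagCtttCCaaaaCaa
The *Mef2c* stretch spans 2 exons within chr13:83575677-83592843 (plus strand), that of *Mef2a* 2 exons within chr7:67295513-67316845 (minus strand) and that of *Mef2d* 2 exons within chr3:88155809-88156387 (plus strand). *Neurod2* (chr11:98328217-98328336) and *Neurod6* (chr6:55679531-55679650) have theirs in 1 exon each on the minus strand. The MEF2 starts encode the MADS box, the DNA-binding domain of the family, and *Mef2c* shares 97 of these 120 bases with *Mef2a* and 98 with *Mef2d*. They differ in the number of C in the stretch, with 13 in *Mef2c*, 19 in *Mef2a* and 25 in *Mef2d*. *Neurod2* and *Neurod6* share 48 of the 120 bases, and *Neurod2* has 45 C against 25 in *Neurod6*. EPR is taken over the whole gene, so which of these C were edited is not known from it. The transcript of *Mef2c* shared no run of 50 bases with another gene, nor did those of *Neurod2* and *Neurod6*.

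Markers of the cell types of the cortex were looked up in the same libraries. EPR shows which of them were edited, not how much of their mRNA or how many such cells were present. All 7 glutamatergic markers were edited in every library, led by *Nrgn*, a postsynaptic calmodulin-binding protein, as were all 8 pan-neuronal markers, led by *Nefl*, a neurofilament. The summed EPR of the glutamatergic markers, as deposited and without scaling, ranged from 0.187 to 0.242 with RPL10A-STAMP and from 0.147 to 0.182 with RPL22-STAMP. The sum joins markers that went in opposite directions. *Slc17a6*, named after its values were seen, averaged 0.0551 with RPL10A-STAMP and 0.00931 with RPL22-STAMP. *Nrgn* went the other way, with means of 0.0354 and 0.0682. Of 10 GABAergic markers, 5 were edited in every library, *Slc32a1* had the highest mean EPR and *Dlx5* was listed at 0. The sum over all 10 ranged from 0.0543 to 0.0870 with RPL10A-STAMP and from 0.0692 to 0.105 with RPL22-STAMP. *Slc32a1*, and *Gad1* and *Gad2*, named after their values were seen, were higher in every RPL22-STAMP than in every RPL10A-STAMP library. With RPL10A-STAMP they averaged 0.00535, 0.00854 and 0.00961, against 0.0217, 0.0165 and 0.0148 with RPL22-STAMP. The rest of the list overlapped. Of all genes edited throughout, 6.21% were higher in this way. Of 8 astrocyte markers, 6 were edited in every library, led by *Aqp4*. The sum over all 8 ranged from 0.277 to 0.353 with RPL10A-STAMP and from 0.167 to 0.334 with RPL22-STAMP. Over the 6 libraries *Aqp4* averaged 0.0545, against 0.0518 for *Nrgn* and 0.0449 for *Nefl*. High EPR was thus not confined to neuronal markers, and the source of these edits was not tested. Oligodendrocyte markers were edited in every library in 1 of 7 cases (*Olig1* highest, *Mog*, *Sox10* and *Cspg4* at 0), progenitor markers in 2 of 6 (*Vim* highest, *Hes5* and *Mki67* at 0), and microglia markers in 0 of 6 (*C1qa* highest, *Aif1*, *Csf1r*, *P2ry12* and *Tmem119* at 0). The 4 endothelial markers *Cldn5*, *Pecam1*, *Flt1* and *Cdh5* were listed at 0 throughout. The part of other cell types in the results below was not tested. For a gene expressed in more than 1 cell type, a bulk library joins the edits and the reads of all of them. The EPR of each cell type cannot then be told apart.

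Most of the factors were edited less per read than the typical gene. The median of their mean EPR over the 6 libraries was 0.00790 for the 8 edited throughout, against 0.0135 for all 8046 genes edited in every library. Within the libraries, 6, 7 and 6 factors lay below the median edited gene in the RPL10A-STAMP libraries, in replicate order, and 6, 7 and 5 in the RPL22-STAMP libraries. *Mef2c* was above it in every library and *Cux2* in all but RPL10A-STAMP replicate 3, where its percentile was 32.5. The plot of percentiles shows this split.

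**Figure D1:**
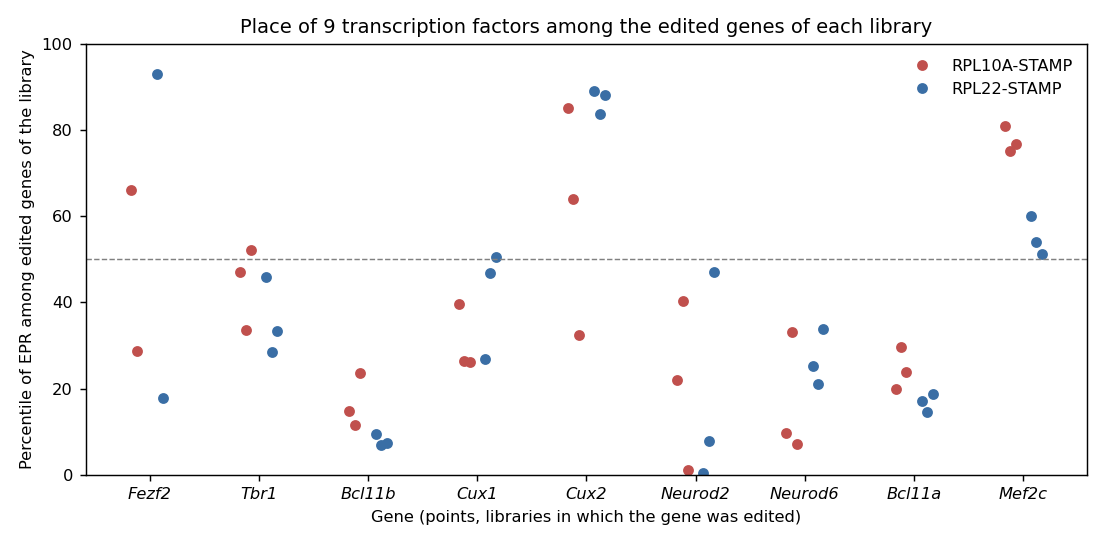
Percentile of the EPR of each of the 9 transcription factors among the edited genes of the same library (vertical axis, % of edited genes), for 3 RPL10A-STAMP (red) and 3 RPL22-STAMP (blue) libraries, with the median edited gene as a dashed line. *Mef2c* lies above the line in all 6 libraries, from 51.3 to 80.9, and *Bcl11b* below it in all 6, from 6.83 to 23.7.

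The order of the mean EPR over the 6 libraries was *Cux2* (0.0239 ± 0.00765, SD, n = 6), *Mef2c* (0.0197 ± 0.00850), *Tbr1* (0.0103 ± 0.00314), *Cux1* (0.00934 ± 0.00220), *Bcl11a* (0.00647 ± 0.00194), *Neurod6* (0.00643 ± 0.00235), *Neurod2* (0.00605 ± 0.00449) and *Bcl11b* (0.00484 ± 0.00192). EPR is a value per read, and the length of the mRNAs was not tested against this order. Over the 6 libraries, the only neighbours whose difference within a library exceeded its spread were *Mef2c* and *Tbr1*, which differed by 0.00935 ± 0.00614 (SD, n = 6), with *Mef2c* higher in 6 of 6 libraries. All other neighbours differed by less than the SD of their difference, so that, for example, *Bcl11a*, *Neurod6* and *Neurod2* have no measured order. The order of *Cux2* and *Mef2c* was not the same in all libraries. With RPL22-STAMP, *Cux2* had the higher EPR in 3 of 3 libraries (means 0.0279 and 0.0121), and with RPL10A-STAMP in 1 of 3 (means 0.0200 and 0.0273), a difference that was not tested. *Fezf2* was left out of the order because it was listed at 0 in 2 libraries.

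**Figure D2:**
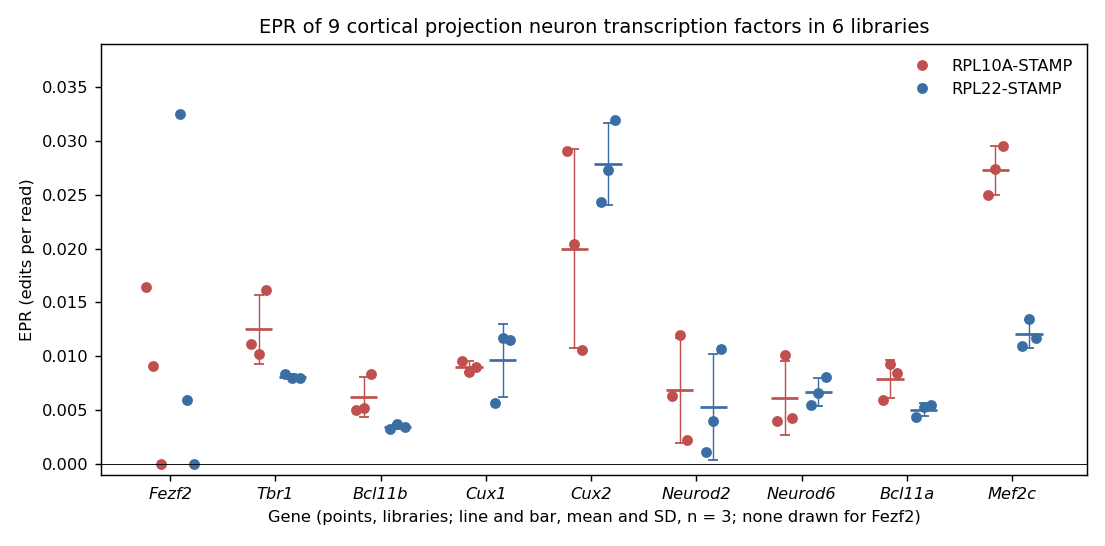
EPR (edits per read, vertical axis) of the 9 transcription factors in each of the 3 RPL10A-STAMP (red) and 3 RPL22-STAMP (blue) libraries, with replicates 1, 2 and 3 from left to right, and the mean and SD for the 8 genes edited in all libraries. The libraries of *Mef2c* form separate groups, 0.0249 to 0.0295 with RPL10A-STAMP, against 0.0110 to 0.0135 with RPL22-STAMP, while those of *Cux2*, *Neurod2* and *Neurod6* overlap.

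The mRNAs differ widely in sequence. Their GC content runs from 40.8% in *Mef2c*, among the lowest of the tested genes, to 58.7% in *Neurod2*, which exceeds 94.6% of them. The 3′ untranslated region of these transcripts has 305 bases in *Cux1*, 815 in *Neurod6*, 4229 in *Cux2*, 4447 in *Mef2c* and 4997 in *Bcl11b*. Other transcripts of a gene can differ. That of *Cux1* used here has 4882 bases, while all annotated exons of the gene cover 20024. The length of the 3′ untranslated region was not tested against EPR.

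The comparison between the variants asked whether the EPR of these mRNAs differs between the constructs. Besides the ribosomal protein, the constructs differ in fusion site, with RPL10A at the C terminus of APOBEC1 and RPL22 at its N terminus. Construct expression in each library was not measured here, so these differences cannot be told apart. As deposited, EPR was higher in every RPL10A-STAMP than in every RPL22-STAMP library for 4 of the 8 factors edited throughout, *Tbr1*, *Bcl11a*, *Bcl11b* and *Mef2c*, and for none was it lower throughout. Over all genes edited throughout, the libraries did not overlap for 34.4%: 28.2% were higher with RPL10A-STAMP, against 6.21% with RPL22-STAMP. After each library was scaled to its median gene, *Bcl11a*, by a narrow margin, and *Mef2c* were the 2 factors without overlap. Over all genes this held for 37.1% in either direction. In the limma fit across the 8046 genes edited throughout, on scaled log2(EPR + 0.01), *Mef2c* was the only factor that passed an adjusted p of 0.05, 1 of 8, whereas 14.3% of all genes passed it, 8.51% as higher with RPL10A-STAMP, against 5.77% as higher with RPL22-STAMP. A count of 1 in 8 is close to that background. The log2 fold change, given throughout as RPL10A-STAMP over RPL22-STAMP, had a median of 0.07 for the factors and -0.01 for all genes tested. Because of the added 0.01, this scale makes changes of genes with low EPR look smaller than they are.

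Among the deep-layer factors, *Tbr1* encodes a T-box factor of corticothalamic neurons and lies at chr2:61802930-61814114 (GRCm38, plus strand). In replicates 1, 2 and 3, its EPR was 0.0111, 0.0103 and 0.0162 with RPL10A-STAMP, against 0.00839, 0.00796 and 0.00800 with RPL22-STAMP. The RPL10A-STAMP libraries were all higher, and the RPL22-STAMP libraries lay close together (two-sided exact permutation test, p = 0.10, which is the lowest value that groups of 3 can reach). After scaling, its log2 fold change was 0.10 (SE 0.146, limma adjusted p = 0.673), and the scaled libraries overlapped.

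*Bcl11b*, also known as Ctip2, encodes a zinc-finger factor of subcerebral neurons (chr12:107910403-108003602, minus strand). It had the lowest mean EPR over the 6 libraries, by less than the spread of its difference from *Neurod2*, and with RPL10A-STAMP the mean of *Neurod6* was lower still. With RPL10A-STAMP its EPR was 0.00504, 0.00520 and 0.00837, and with RPL22-STAMP 0.00330, 0.00373 and 0.00340. The order of the groups was as for *Tbr1*, with RPL10A-STAMP replicate 3 far above all other libraries, and the exact permutation test gave the same p of 0.10. Its scaled log2 fold change was 0.13 (SE 0.108, limma adjusted p = 0.449). Of the 8062 runs of 50 bases in its transcript, 4 were shared with *Gm45147*.

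*Fezf2*, which encodes a zinc-finger factor upstream of *Bcl11b* in subcerebral neurons (chr14:12342094-12348189, minus strand), had zeros. Its EPR was 0.0164, 0.00909 and 0 with RPL10A-STAMP, against 0.0325, 0.00592 and 0 with RPL22-STAMP. In both variants replicate 1 was highest and replicate 3 was listed at 0, which can mean no edits or no reads. The variants overlapped (two-sided exact permutation test, p = 0.90), and the gene was not in the fit. When the fit took in every gene with edits in 3 or more libraries, its log2 fold change was -0.29 (SE 0.697, limma adjusted p = 0.849).

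The upper-layer factors *Cux1* and *Cux2* encode related cut-homeodomain proteins and lie on the same chromosome, at chr5:136248135-136567490 and chr5:121856366-122050102, both on the minus strand. *Cux1* had an EPR of 0.00959, 0.00856 and 0.00896 with RPL10A-STAMP and of 0.00570, 0.0117 and 0.0115 with RPL22-STAMP. The RPL10A-STAMP libraries were tight and lay inside the range of the RPL22-STAMP libraries, where replicate 1 was low (log2 fold change -0.20, SE 0.149, limma adjusted p = 0.413). *Cux2* had an EPR of 0.0290, 0.0204 and 0.0105 with RPL10A-STAMP and of 0.0244, 0.0273 and 0.0319 with RPL22-STAMP. The values of RPL10A-STAMP spread widely and overlapped those of RPL22-STAMP (two-sided exact permutation test, p = 0.30).

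*Cux2* had the lowest log2 fold change of the factors, -0.63, but with an SE of 0.284 it did not pass the test (limma adjusted p = 0.185, 95% confidence interval -1.30 to 0.04). Over 17 alternatives the adjusted p ranged from 0.0589 to 0.452. *Cux2* was edited more per read than *Cux1* in 6 of 6 libraries. The ratio of *Cux2* to *Cux1* within a library, which no scaling can change, was 3.03, 2.39 and 1.18 with RPL10A-STAMP, against 4.27, 2.33 and 2.78 with RPL22-STAMP. The ratios of the variants overlapped.

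The bHLH factors *Neurod2* (chr11:98325415-98329648) and *Neurod6* (chr6:55677822-55681263), both on the minus strand and each with its coding sequence in 1 exon, drive differentiation of excitatory neurons. *Neurod2* had an EPR of 0.00629, 0.0120 and 0.00221 with RPL10A-STAMP and of 0.00112, 0.00396 and 0.0107 with RPL22-STAMP. Each variant had low and high libraries, and the ranges were nearly the same (two-sided exact permutation test, p = 0.70). Its residual SD in the fit was 0.435 on the log2 scale, larger than for 87.2% of all genes tested, and its log2 fold change was 0.05 (95% confidence interval -0.62 to 0.71, limma adjusted p = 0.932).

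*Neurod6* had an EPR of 0.00402, 0.0101 and 0.00430 with RPL10A-STAMP and of 0.00551, 0.00656 and 0.00809 with RPL22-STAMP. RPL10A-STAMP replicate 2 was the highest library and the other two of that variant the lowest, so the RPL22-STAMP libraries lay in between (two-sided exact permutation test, p = 0.80). Its log2 fold change was -0.22 (SE 0.154, limma adjusted p = 0.373). The ratio of *Neurod2* to *Neurod6* was 1.57, 1.19 and 0.514 with RPL10A-STAMP, against 0.203, 0.603 and 1.33 with RPL22-STAMP. *Neurod2* was thus higher in 3 of 6 libraries, and the pair had no stable order between libraries.

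*Bcl11a*, also known as Ctip1, encodes a zinc-finger factor related to BCL11B (chr11:24078056-24174123, plus strand). Its EPR was 0.00594, 0.00930 and 0.00842 with RPL10A-STAMP, against 0.00440, 0.00531 and 0.00545 with RPL22-STAMP. All RPL10A-STAMP libraries were higher (two-sided exact permutation test, p = 0.10). The scaled values also did not overlap, but by a narrow margin. The lowest scaled RPL10A-STAMP value was 0.006215 and the highest scaled RPL22-STAMP value 0.006084. On the scale of the fit the log2 fold change was 0.09 (SE 0.108, limma adjusted p = 0.613). Its residual SD of 0.0568 was larger than that of only 2.09% of all genes tested. The ratio of *Bcl11a* to *Bcl11b* was 1.18, 1.79 and 1.00 with RPL10A-STAMP, against 1.34, 1.42 and 1.60 with RPL22-STAMP, so that *Bcl11a* was higher in 6 of 6 libraries, in RPL10A-STAMP replicate 3 barely. An opposite-strand gene, *4930538E20Rik*, overlaps 2.40% of the exon bases of *Bcl11a*, and *Gm16599* overlaps 1.97% of those of *Cux1*. The strand setting of the read counting is not given in the sources used here, so reads in these stretches could belong to either gene.

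*Mef2c* encodes a MADS-box factor that shapes synapse number in excitatory neurons in response to activity (chr13:83504034-83667080, plus strand). Its EPR was 0.0249, 0.0274 and 0.0295 with RPL10A-STAMP, in replicate order, but 0.0110, 0.0135 and 0.0117 with RPL22-STAMP. Every RPL10A-STAMP library was far above every RPL22-STAMP library, and the spread within each variant was small. With RPL10A-STAMP it averaged 0.0273 ± 0.00229 (SD, n = 3), which was 0.0152 above the 0.0121 ± 0.00129 (SD, n = 3) of RPL22-STAMP (two-sided exact permutation test, p = 0.10, again the lowest value possible). On the scaled values of the fit the log2 fold change was 0.51 (SE 0.127, 95% confidence interval 0.21 to 0.81, limma adjusted p = 0.0400).

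This call stood close to the threshold. It was kept in 4 of 17 alternatives, and the adjusted p ranged from 0.0272 without scaling to 0.509. It was lost when any 1 of the 6 libraries was left out, with limma adjusted p from 0.0599 to 0.113, although the log2 fold change stayed between 0.46 and 0.55. The transcript of *Mef2c* has a GC content of 40.8%, the lowest of the factors, and 532 tested genes within 1 percentage point of it had a median log2 fold change of 0.33. After each library's trend with GC content was removed, the log2 fold change of *Mef2c* was 0.16 (limma adjusted p = 0.472). The removal also turned *Cux1* from -0.20 to 0.12 and *Bcl11a* from 0.09 to -0.09, and none of the factors passed the test after it. Of them, *Neurod6*, with a GC content of 41.9%, had the lowest adjusted p, 0.0770 from limma, at a log2 fold change of -0.52.

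**Figure D3:**
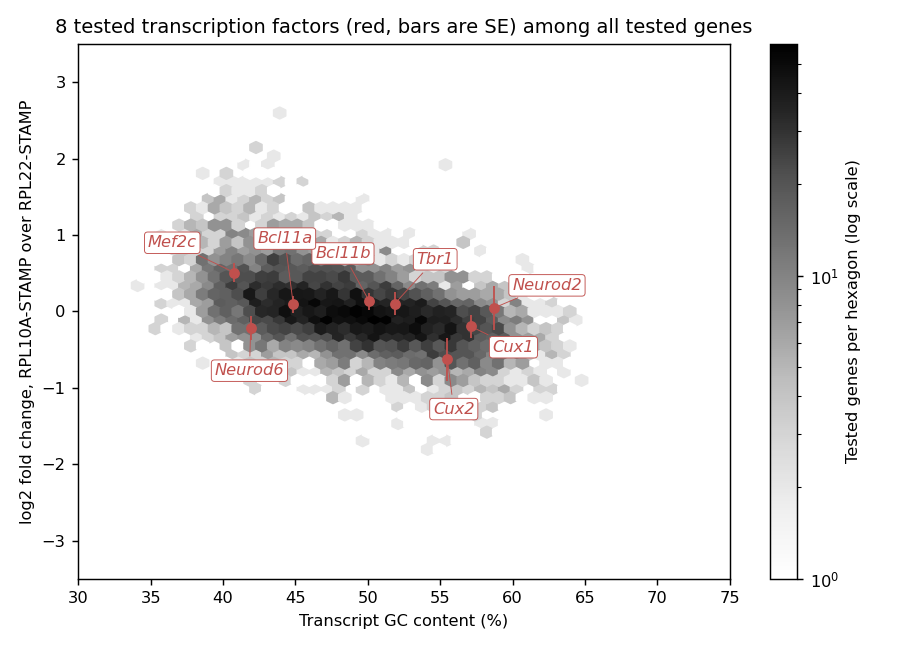
log2 fold change of EPR, RPL10A-STAMP over RPL22-STAMP (vertical axis, scaled log2(EPR + 0.01)), against the GC content of the transcript (horizontal axis, %) for the tested genes with transcript features (grey hexagons, shaded by number of genes) and for 8 transcription factors (red, bars are the SE of limma). The cloud slopes downward from left to right, *Mef2c* sits near its left end at 40.8% and 0.51, and *Neurod6*, at 41.9% and -0.22, lies below most genes of like GC content.

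The MEF2 paralogs differed in how they compared between the variants. *Mef2a* had an EPR of 0.0333, 0.0358 and 0.0450 with RPL10A-STAMP and of 0.0135, 0.0152 and 0.0128 with RPL22-STAMP. As for *Mef2c*, all RPL10A-STAMP libraries were higher (log2 fold change 0.73, SE 0.139, limma adjusted p = 0.0176). The call was kept in 11 of 17 alternatives, and it was lost without RPL10A-STAMP replicate 1 or 3 and without RPL22-STAMP replicate 2 or 3 (highest limma adjusted p over the alternatives 0.146). *Mef2d*, named here as a paralog after its values were seen, had an EPR of 0.0172, 0.0193 and 0.0209 with RPL10A-STAMP and of 0.0147, 0.0199 and 0.0205 with RPL22-STAMP. Its libraries overlapped as deposited, and after scaling all RPL22-STAMP libraries were higher, with a log2 fold change that did not pass the test (-0.21, SE 0.126, limma adjusted p = 0.302).

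The ratio of *Mef2c* to *Mef2d* within a library was 1.45, 1.42 and 1.41 with RPL10A-STAMP, against 0.748, 0.678 and 0.568 with RPL22-STAMP. *Mef2c* thus had more edits per read than *Mef2d* in each RPL10A-STAMP library and fewer in each RPL22-STAMP library, a comparison that scaling between libraries cannot change and that was chosen after the values were seen, so it has no test. The ratio of *Mef2c* to *Mef2a* was 0.748, 0.765 and 0.656 with RPL10A-STAMP, against 0.813, 0.889 and 0.912 with RPL22-STAMP, below 1 in all 6 libraries. In the transcript with the longest coding sequence, the GC content was 40.8% in *Mef2c*, 42.0% in *Mef2a* and 60.4% in *Mef2d*. These transcripts have 6277, 5538 and 1791 bases, and the coding sequence of *Mef2c* alone has a GC content of 50.6%. Which transcripts were expressed is not known here, so this contrast rests on the transcripts chosen. Genes within 1 percentage point of *Mef2d* had a median log2 fold change of -0.33. After removal of the GC trend the log2 fold changes were 0.16 for *Mef2c*, 0.43 for *Mef2a* and 0.17 for *Mef2d*, and none of the 3 passed the test (lowest limma adjusted p = 0.09996, for *Mef2a*).

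Beside the 9 factors, 46 other transcription factors with a known part in cortical development were examined, of which 36 were edited in all 6 libraries. Of these, 3 were called as higher with RPL10A-STAMP, against 0 as higher with RPL22-STAMP by limma (backgrounds of 8.51% and 5.77%), and 13 had an unadjusted p under 0.05, as had 2486 of the 8046 genes tested. Their median log2 fold change was 0.07, and the median of their mean EPR was 0.0110. Unscaled EPR did not overlap between the variants for 14 of the 36, all of them higher with RPL10A-STAMP, where 28.2% of all genes were. After scaling, 10 were higher with RPL10A-STAMP in every library and 7 with RPL22-STAMP, against 37.1% of all genes in either direction. With no scaling 6 were called, all higher with RPL10A-STAMP, and after removal of the GC trend 1 was called as higher with RPL10A-STAMP (*Id2*) and 2 as higher with RPL22-STAMP (*Lmo3* and *Nfia*), which are named after their values were seen.

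*Neurod1*, a bHLH factor related to *Neurod2* and *Neurod6*, had an EPR of 0.0152, 0.0313 and 0.0177 with RPL10A-STAMP and of 0.00513, 0.00609 and 0.00722 with RPL22-STAMP. Its libraries did not overlap, unlike those of its relatives (log2 fold change 0.72, SE 0.182, limma adjusted p = 0.0409, kept in 5 of 17 alternatives). *Tcf4*, which encodes a bHLH partner of NEUROD proteins, had an EPR of 0.0141, 0.0175 and 0.0219 with RPL10A-STAMP and of 0.00618, 0.00812 and 0.00599 with RPL22-STAMP. Here too every RPL10A-STAMP library was higher (log2 fold change 0.52, SE 0.125, limma adjusted p = 0.0358, kept in 6 of 17 alternatives). Leaving out any 1 library ended the call for both *Neurod1* and *Tcf4*, and over the 17 alternatives their limma adjusted p reached 0.210 and 0.124. *Eomes* and *Otx1*, factors of progenitors and of early deep-layer neurons, were listed at 0 in all libraries and are named after their values were seen. Other factors of the list with such roles were edited. For example, *Pax6* was edited in 2 libraries, *Neurog2* in 4, and *Sox5* and *Tle4* in all 6.

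**Figure D4:**
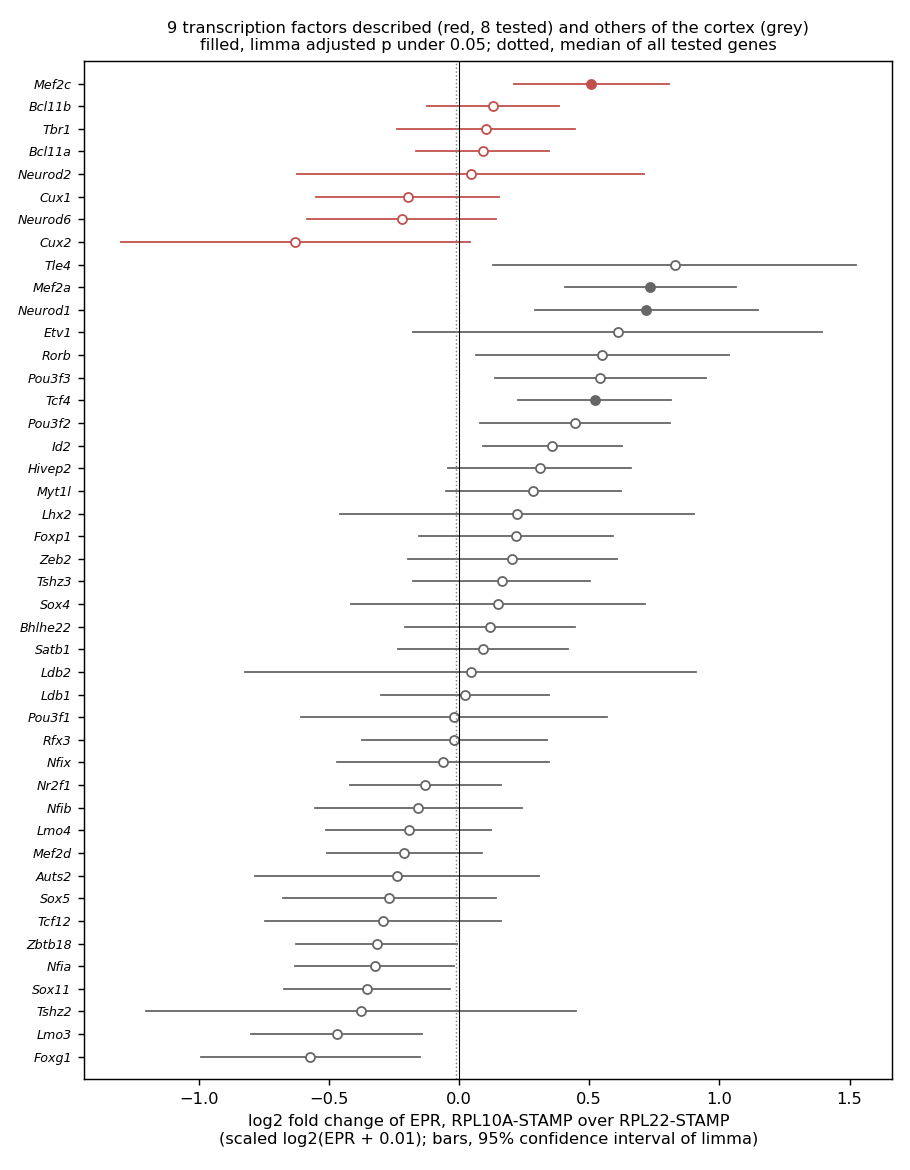
log2 fold change of EPR, RPL10A-STAMP over RPL22-STAMP (horizontal axis, scaled log2(EPR + 0.01)), with its 95% confidence interval from limma, for 8 of the 9 transcription factors (red) and 36 other cortical transcription factors (grey), filled where the adjusted p was under 0.05. Filled points are *Mef2c* at 0.51 and *Mef2a*, *Neurod1* and *Tcf4* between 0.52 and 0.73, and no filled point lies left of 0.

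The factors had no common profile across the libraries. Of the pairs among the 8 tested factors, *Tbr1* and *Bcl11b* had the highest correlation of scaled log2(EPR + 0.01) over the 6 libraries (Pearson r = 0.87) and *Neurod6* and *Bcl11b* the lowest (r = -0.84). *Cux1* and *Cux2* had r = 0.69 and *Neurod2* and *Neurod6* r = 0.55. *Mef2c* followed *Bcl11b* (r = 0.74) more than *Cux2* (r = -0.54). Of the 36 other factors, *Satb1* (r = 0.99), *Zeb2* (r = 0.84) and *Pou3f3* (r = 0.70) were most like the mean z-scored profile of the 8. None of these 3 passed the test between the variants, with log2 fold changes of 0.09, 0.20 and 0.54 (limma adjusted p = 0.694, 0.459 and 0.0801). The correlations are descriptions over 6 libraries that share the difference between the variants, and the mean profile itself averages factors with opposite patterns.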

How the data were processed

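The 6 bulk RNA-seq libraries were grouped by the construct in the sample titles. Single-end reads were trimmed (cutadapt) and aligned to mm10 (STAR), and edits (SAILOR) and reads per gene (featureCounts) were counted by the authors, who deposited the ratio of edits to reads for 31053 genes per library, without normalization between libraries. The gene annotation is not given in the sources used here. GENCODE mouse release 21 held 30934 of the identifiers. The ratio holds no counts, so no count model, confidence interval of counting or detection limit could be given, and the depth behind each value is unknown.

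To scale the libraries, the median EPR of the 8046 genes with edits in every library (0.00907 to 0.0161) was set to the geometric mean of these medians. limma 3.58.1 (R 4.3.3) was run with a variance trend on log2(EPR + 0.01), and p values were adjusted over all 8046 genes by Benjamini-Hochberg (threshold 0.05). Single values were compared with exact permutation tests over 20 labelings. The study's text calls the replicates both biological and technical, and the labels name no separate cultures, so p values measure the spread between these libraries. No 2 libraries were identical. The factors and lists were chosen with earlier results of these data known. Named are the 9 factors; of 46 others, the 3 called without overlap with the largest change in each direction and the 3 most alike; and, of each marker list, the marker with the highest mean EPR and those at 0. A gene of the list of others and a marker are not reported here. Coding starts, GC content and overlaps came from GENCODE release 21 (GRCm38), for 8039 of the tested genes. GC content and length were those of 1 transcript per gene, the one with the longest coding sequence. Trends with GC content and length were removed per library by a natural spline (4 df). Alternatives were scaling, pseudocounts of 0.001 and 0.05, the filter, the variance trend, the replicate number as a block, GC and length trends, and each library left out. Tables and figures were made in Python 3.11.15 with scipy 1.17.1 and matplotlib 3.10.9.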

Additional observations from a re-analysis of the deposited data

How the results depend on the processing

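Of all genes, 1149 were called, of which 59.6% were higher with RPL10A-STAMP, and 88.1% without scaling. The count was 754 with genes edited in at least 3 libraries, 569 with no filter, 663 after removal of the GC trend, and 373 to 874 with 1 library left out. Replicates with the same number hardly deviated together (correlations 0.0437, 0.0464 and -0.00546). Correlations between different numbers were not computed, so these values cannot tell whether libraries with the same number share a culture. As a block, the replicate number left 603 calls, and 227 with the block and GC removal together. Of the 9 factors, 1 was called, and 0 with quantile normalization, either laxer filter, the replicate block, GC removal, both together, length removal or any library left out. Of the other factors, 3 were called, 6 without scaling, 5 after length removal, 1 with either laxer filter, 1 with the replicate block, 0 with the block and GC removal, and 0 to 1 with a library left out. Factors whose libraries did not overlap numbered 4, 2 after scaling to the median gene, and 4 to 5 with a library left out.

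Directions turned only for values that did not pass the test. After GC removal, with or without the replicate block, the log2 fold change was -0.089 for *Bcl11a*, 0.12 for *Cux1* and -0.016 for *Zeb2*. After removal of the length trend it was -0.0033 for *Bcl11a* and -0.015 for *Bcl11b*. With a library left out, that of *Neurod2* ranged from -0.15 to 0.31. The difference of mean EPR, RPL10A-STAMP minus RPL22-STAMP, then ranged from -0.00256 to 0.000444 for *Cux1*, from -0.00101 to 0.00429 for *Neurod2*, from -0.00256 to 0.000487 for *Neurod6* and, with zeros taken as measured, from -0.0107 to 0.00554 for *Fezf2*. The cause was not tested. The reads behind each ratio are unknown, so the zeros of *Fezf2* and the wide spread of *Neurod2* cannot be set against depth.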

Other observations

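*Nr2f2*, a nuclear receptor of interneurons and of posterior and ventral cortex, named after its values were seen, was listed at 0 in all 3 RPL10A-STAMP libraries and had an EPR of 0.00771, 0.00345 and 0.00889 in RPL22-STAMP replicates 1, 2 and 3. *Emx1*, a homeodomain factor of the cortical lineage, also named after its values were seen, was edited in 2 libraries, with an EPR of 0.0126 and 0.0345 in RPL22-STAMP replicates 2 and 3. Neither was in the fit, and a value of 0 can mean no reads.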
